A study of Homo sapiens with 6 samples.

Results

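The 10 genes described here encode E proteins (TCF3, TCF4 and TCF12), ID proteins (ID1, ID2, ID3 and ID4) and the repressive basic helix-loop-helix (bHLH) factors TWIST1, TWIST2 and MSC. Their accessible chromatin was followed in RH30 cells, a fusion-positive alveolar rhabdomyosarcoma line, with and without MyoD. Peaks that overlapped in the 6 ATAC-seq libraries were joined into regions, and a region was assigned to a gene where its top summit, the summit of its peak with the highest fold enrichment, lay in the gene body or within 50 kb of it (GENCODE, hg38). This gave 126 of 105569 regions, and no region was assigned to 2 of the genes. Of the 126 regions, 47 had their summit in the gene body, 43 upstream and 36 downstream. For 80 of them no other protein-coding gene had a nearer 5′ end, and 15 lay inside the body of another protein-coding gene.

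The vector group held 3 libraries of RH30 cells given Cas9 and non-targeting scramble guides. The MyoD-deleted group held 3 libraries of RH30 cells given Cas9 and guides against MyoD. All 6 were grown in serum-containing medium, frozen in a DMSO-containing medium and processed for ATAC-seq by a company. The study's text names both RH30 cells and RH30 cells that carry an IκBα super repressor of NF-κB, and the labels name RH30 only, so which of the 2 was used for these libraries could not be settled. How the guides were delivered to these cells, and whether the cells were a selected pool or a clone, was not given either. The replicates are labelled biological, and p-values measure the spread between these libraries.

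E proteins are widely expressed bHLH factors that pair with tissue-specific bHLH factors such as MyoD, and the pair binds the E box (CANNTG). ID proteins have the helix-loop-helix but lack the basic region that contacts DNA, so they hold E proteins in dimers that do not bind. TWIST1, TWIST2 and MSC (musculin, also called MyoR) bind E boxes as partners of E proteins and are known as inhibitors of muscle gene activation.

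The libraries held 63140 to 80608 peaks, and 47885 regions (45.4%) were called in all 6. The lowest Spearman correlation of fold enrichment between libraries of a group was 0.901. No read totals come with the peak lists, so the depth behind each value is unknown. A region called in all 6 libraries was found within 2 kb of the 5′ end of 9 of 9 muscle lineage markers, and of 0 of 5 epithelial, 0 of 5 blood and 0 of 5 endothelial markers. The region at the 5′ end of MYOD1, the targeted gene, was called in every library. Its percentile of fold enrichment was 60.4, 65.7 and 59.7 in vector cells and 49.9, 57.1 and 54.0 after MyoD deletion. Its change in rank had an adjusted p of 0.408 by limma, and its summit was lower by a log2 change of -0.49 (limma adjusted p = 0.00210). Accessibility at a 5′ end does not measure the deletion itself.

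The sequences around 10 changed regions are shown because they hold, or lack, the E box that the proteins of these genes bind. Each is 101 bases of the hg38 reference, plus strand, 5′ to 3′, centred on the top summit, and the capitals mark every E box (CANNTG). The distance in each name is that of the summit from the gene's 5′ end. In these names downstream means downstream of the 5′ end, and the TCF12, TCF4 and TWIST2 regions shown lie in introns.
TCF3 upstream region at 40.6 kb, chr19:1693127-1693227: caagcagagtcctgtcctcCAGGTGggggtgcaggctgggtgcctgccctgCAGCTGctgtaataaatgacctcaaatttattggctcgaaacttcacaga
TCF3 upstream region at 15.4 kb, chr19:1667974-1668074: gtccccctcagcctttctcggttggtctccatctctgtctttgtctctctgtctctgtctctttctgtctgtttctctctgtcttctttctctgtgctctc
TCF12 downstream region at 142.4 kb, chr15:57060989-57061089: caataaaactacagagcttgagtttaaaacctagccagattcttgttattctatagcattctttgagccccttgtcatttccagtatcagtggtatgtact
TCF12 downstream region at 193.8 kb, chr15:57112380-57112480: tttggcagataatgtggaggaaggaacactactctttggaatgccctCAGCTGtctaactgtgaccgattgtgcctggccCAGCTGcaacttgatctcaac
TCF12 downstream region at 326.7 kb, chr15:57245254-57245354: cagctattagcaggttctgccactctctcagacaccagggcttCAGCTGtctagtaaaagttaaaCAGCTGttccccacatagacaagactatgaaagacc
TCF4 downstream region at 201.9 kb, chr18:55462847-55462947: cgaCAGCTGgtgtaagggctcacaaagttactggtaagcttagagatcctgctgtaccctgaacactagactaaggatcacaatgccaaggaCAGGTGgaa
ID3 upstream region at 21.9 kb, chr1:23581360-23581460: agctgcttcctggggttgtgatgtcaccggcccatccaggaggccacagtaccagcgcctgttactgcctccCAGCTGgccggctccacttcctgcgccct
ID3 downstream region at 19.5 kb, chr1:23539908-23540008: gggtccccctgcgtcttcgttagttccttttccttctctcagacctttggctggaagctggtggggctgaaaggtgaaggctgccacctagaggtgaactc
ID3 downstream region at 34.4 kb, chr1:23525052-23525152: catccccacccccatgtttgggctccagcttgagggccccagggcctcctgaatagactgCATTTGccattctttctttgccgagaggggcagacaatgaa
TWIST2 downstream region at 16.5 kb, chr2:238864452-238864552: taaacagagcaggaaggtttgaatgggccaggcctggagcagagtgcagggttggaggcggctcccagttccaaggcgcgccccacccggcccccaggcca
The E boxes of the first TCF3 window were CAGGTG and CAGCTG, and the other TCF3 window had none. The first TCF12 window, of a region that was higher, had no E box, and the other TCF12 windows, of regions that were lower, held CAGCTG at 2 places each. Of the other lower TCF12 regions, not shown, the window at 341.2 kb held CACCTG and CATTTG and that at 388.0 kb had no E box. The TCF4 window held CAGCTG and CAGGTG near its ends. Of the ID3 windows the first held CAGCTG, the second had no E box and the third held CATTTG. The TWIST2 window had no E box.

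A pair of measures was compared between the groups. The first was the percentile of a region's highest fold enrichment (pileup at the summit over the local background) among the 47885 regions called in all 6 libraries. The second was the summit height, the log2 of the pileup over the smallest background of the library, centred on the median region. Both were tested with limma across the 47885 regions, the percentile as an inverse-normal rank, with Benjamini-Hochberg adjustment and a threshold of 0.05. Without centring, the median region of all 47885 was higher in the MyoD-deleted libraries by 0.23 on the log2 scale, and the centred changes are relative to the median region.

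Around the 10 genes accessibility changed at single distal regions in both directions, and the strongest region at each 5′ end passed neither test. Of the 126 regions 64 were called in all 6 libraries, 4 were gained (called in 3 of 3 MyoD-deleted and 0 of 3 vector libraries), 1 was lost (the reverse) and 57 were partly called. Gained regions made up 3.17% of the regions of the 10 genes and 4.56% of all regions. The lost region made up 0.794%, against 1.78% of all regions. By percentile 2 of the 64 were higher in MyoD-deleted cells (3.13%, against 4.12% of all regions tested) and 4 were lower (6.25%, against 4.67%). By centred height 5 were higher (7.81%, against 11.4%) and 8 were lower (12.5%, against 12.8%). Without centring 10 were higher (against 24.7%) and 4 were lower (against 8.03%). Of these shares, that lower by percentile was the only one above that of all regions tested, and it rests on 4 regions. The median change of the 64 regions was -1.57 percentile points, against -0.08 over all regions, and 0.00 in centred height, against 0.04.

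**Figure D1:**
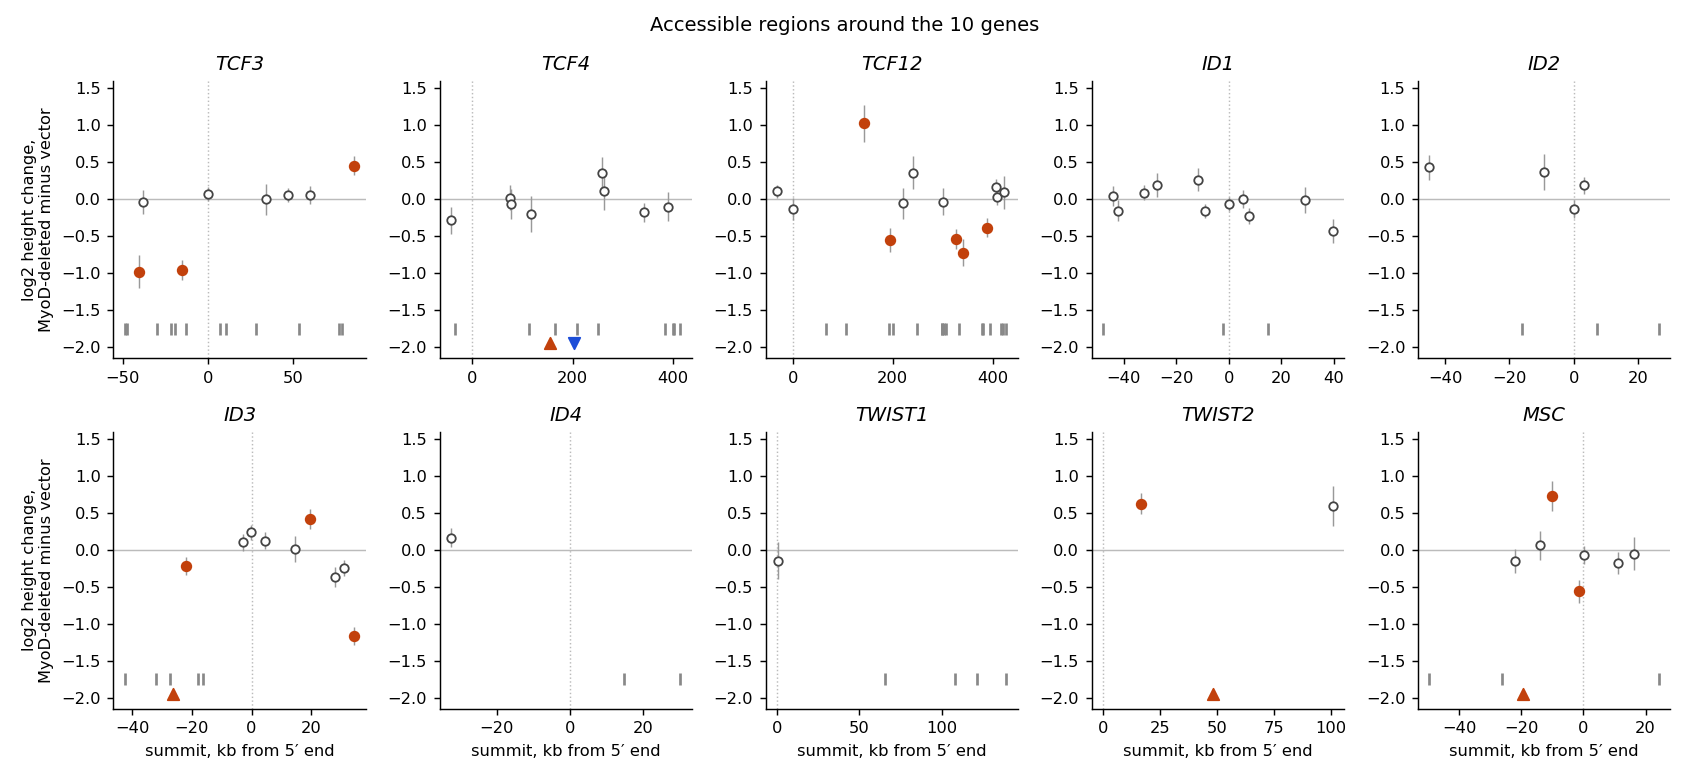
Change in centred log2 summit height (MyoD-deleted minus vector, with its standard error) of the 64 regions called in all 6 libraries, against the distance of the summit from the gene's 5′ end in kb, with filled points for the 14 regions that passed the test by percentile or height. Grey ticks mark the 57 partly called regions, upward triangles the 4 gained and the downward triangle the 1 lost region, and the filled points lie away from the 5′ ends except at MSC.

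In all, 14 of the 64 regions passed the test by percentile or height, and 5 of them passed both in the same direction. The 14 made up 21.9%, against 25.5% of all regions tested, with 5 higher (7.81%, against 12.1%) and 9 lower (14.1%, against 13.4%). The 14 lay around TCF12 (5 regions), TCF3 (3), ID3 (3), MSC (2) and TWIST2 (1). The E proteins had 2 that were higher and 6 that were lower among 29 regions called in all libraries. The ID genes had 1 higher and 2 lower among 25. TWIST1, TWIST2 and MSC had 2 higher and 1 lower among 10. These are counts only, and the difference between the families was not tested. For 8 of the 14 the member gene had the nearest 5′ end, and 1 of the 14 lay within 2 kb of the gene's 5′ end.

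Few of the percentile calls held when 1 library was left out, which leaves fewer libraries to test. The percentile shifts of the 6 called regions kept their direction in every setting with a value. They ranged from -26.2 to -21.6 points (TCF3, 15.4 kb upstream), -19.8 to -9.84 (TCF3, 40.6 kb upstream) and 19.8 to 36.1 (TCF12, 142.4 kb). At ID3 they ranged from -25.9 to -6.16 (21.9 kb upstream), 10.5 to 17.9 (19.5 kb) and -30.4 to -17.7 (34.4 kb). With 1 library left out, 0 to 2 regions were higher and 0 or 1 lower by percentile, and none was called in either direction without vector replicate 3, MyoD-deleted replicate 1 or MyoD-deleted replicate 2. The share of all regions called by percentile in these fits is not given. The height calls held in 6 of 6 such fits at TCF3 (15.4 and 40.6 kb upstream), TCF12 (142.4 and 326.7 kb), ID3 (34.4 kb downstream) and TWIST2 (16.5 kb). Of the other 7 height calls, that at TCF12 341.2 kb was lost without vector replicate 2 (-0.56). That at MSC 10.2 kb upstream was lost without vector replicate 2 (0.54) or MyoD-deleted replicate 1 (0.70), and that at MSC 1.4 kb upstream without vector replicate 2 (-0.50) or MyoD-deleted replicate 3 (-0.47). That at TCF3 85.8 kb was lost without vector replicate 2 (0.40), MyoD-deleted replicate 1 (0.43) or replicate 2 (0.39). That at ID3 19.5 kb was lost without vector replicate 2 (0.42), vector replicate 3 (0.43) or MyoD-deleted replicate 1 (0.32). At TCF12 193.8 and 388.0 kb it was lost in 4 and 5 of 6 fits, with changes of -0.47 to -0.55 and of -0.27 to -0.44. None of these changed direction.

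**Figure D2:**
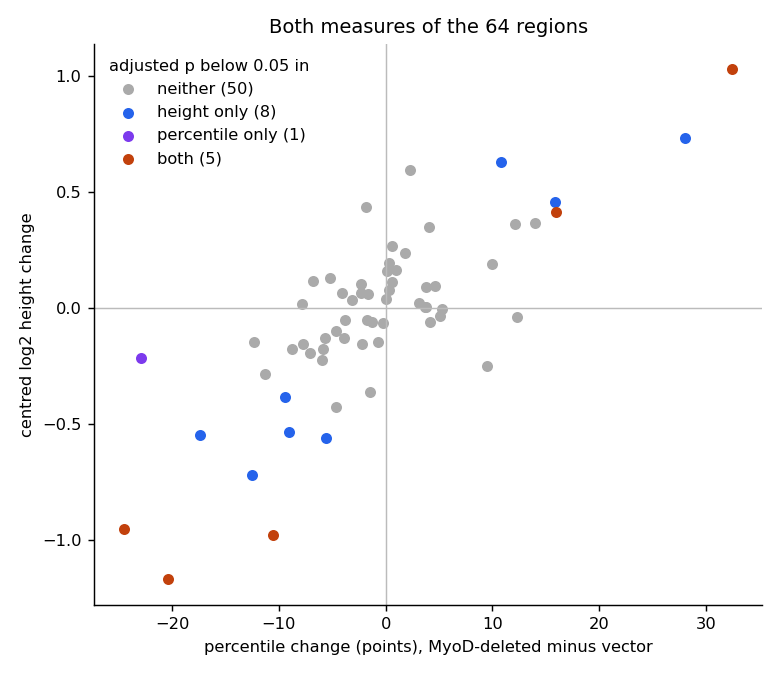
Change in percentile of fold enrichment (x axis, points) and in centred log2 summit height (y axis) of each of the 64 regions, MyoD-deleted minus vector, coloured by which measure passed the test. The 5 regions that passed both lie in the lower left and upper right, and 8 passed by height only.

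TCF3 encodes E12 and E47, the E proteins best known as partners of MyoD. It lies on the minus strand at chr19:1609291-1652615 (ENSG00000071564.19) and had 20 regions, of which 8 were called in all libraries. The largest decline in percentile points was at chr19:1667438-1669100, 15.4 kb upstream of the 5′ end. Its percentile was 46.7, 48.5 and 50.2 in vector cells and 19.3, 28.1 and 24.7 after MyoD deletion. Every vector library was above every MyoD-deleted library, and the mean fell from 48.5 ± 1.73 to 24.0 ± 4.42 (SD, n = 3; limma adjusted p = 0.0353). The centred height changed by -0.95 ± 0.13 (SE; limma adjusted p = 6.1e-05), to 0.517 of the vector level. This window has no E box within 100 bp of its summit.

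The region farther upstream, at chr19:1692920-1693518 and 40.6 kb from the 5′ end, was weak in all libraries. It ranked at the 14.8th, 6.10th and 16.0th percentile in vector cells and at 2.52, 1.81 and 0.953 after MyoD deletion, with no overlap (limma adjusted p = 0.0293). Its height fell to 0.507 of the vector level (log2 change -0.98 ± 0.22, SE; limma adjusted p = 0.00367). A region 85.8 kb downstream of the 5′ end, at chr19:1566420-1568747, lies inside MEX3D, which is also the nearest 5′ end. Its centred heights were 0.68, 0.60 and 0.81 in vector cells and 1.20, 1.30 and 0.97 after MyoD deletion (log2 change 0.45 ± 0.13, SE; limma adjusted p = 0.0140), while its percentile missed the threshold (adjusted p = 0.140). The other 5 regions called in all libraries, 1 of them at the 5′ end, passed neither test.

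TCF12 encodes the E protein HEB, which pairs with MyoD in muscle precursors. It lies on the plus strand at chr15:56918623-57299281 (ENSG00000140262.18), had the most regions of the 10 genes (29, of which 13 were called in all libraries), and none was gained or lost. The largest rise among its regions was at chr15:57060697-57061493, in intron 3 of the canonical transcript and 142.4 kb from the 5′ end. Its percentile was 14.2, 7.71 and 1.12 in vector cells and 51.5, 35.2 and 33.7 after MyoD deletion. Each library of the MyoD-deleted group was above each of the vector group (mean 7.68 ± 6.55 against 40.1 ± 9.89, SD, n = 3; limma adjusted p = 0.0237). The height rose 2.04-fold (log2 change 1.03 ± 0.25, SE; limma adjusted p = 0.00565). The pileups at its summit were low, at 22, 13 and 10 in vector and 30, 26 and 27 in MyoD-deleted libraries.

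The other 4 changed TCF12 regions were lower by centred height only. The strongest of them, by fold enrichment, was in intron 13 at chr15:57244771-57245946, with heights of 0.94, 1.01 and 0.84 in vector cells and 0.27, 0.31 and 0.60 after MyoD deletion. These did not overlap (log2 change -0.53 ± 0.13, SE; limma adjusted p = 0.00703), and the percentile was 95.6, 93.6 and 88.4 against 80.9, 86.3 and 83.3 (adjusted p = 0.0842). The region in intron 16 at chr15:57259247-57260252 changed by -0.72 ± 0.18 (SE; limma adjusted p = 0.00712), from 0.00, 0.70 and 0.45 to -0.21, -0.52 and -0.28. The region in intron 5 at chr15:57111635-57112848 changed by -0.55 ± 0.16 (SE; limma adjusted p = 0.0183), from 0.17, 0.38 and 0.26 to -0.37, -0.43 and -0.04. A region 388.0 kb from the 5′ end, beyond the 3′ end and nearest to CGNL1, changed by -0.38 ± 0.13 (SE; limma adjusted p = 0.0407). CGNL1 was also the nearest 5′ end for the intron 13 and intron 16 regions. Without centring the intron 5, downstream and intron 13 regions missed the threshold, with changes of -0.36, -0.19 and -0.34.

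TCF4 encodes E2-2, an E protein with many transcripts that start at different exons. It lies on the minus strand at chr18:55222185-55664787 (ENSG00000196628.20) and had 19 regions, of which 8 were called in all libraries. None of the 8 passed either test. No region was found within 2 kb of the gene's 5′ end, but 5 of the 8 had their summit within 200 bp of the 5′ end of another protein-coding transcript. The highest of these, 342.4 kb into the gene, was at percentile 73.6, 77.1 and 73.1 in vector cells and 73.0, 65.2 and 67.9 after MyoD deletion (limma adjusted p = 0.480). The groups did not overlap there, but by little. Over the other 4 such regions the group means were 19.8 to 63.4 in vector and 18.1 to 58.8 in MyoD-deleted libraries.

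TCF4 had the only lost region of the 10 genes and 1 gained region. The lost region, at chr18:55462394-55463140 in intron 4, was called in all vector libraries at percentiles of 45.9, 43.9 and 47.4 among all regions of each library, and in no MyoD-deleted library. The pileup at its summit was 27, 21 and 25. The gained region, at chr18:55509771-55510520 in intron 3, was called in the MyoD-deleted libraries at percentiles of 39.1, 18.8 and 19.4 and in no vector library, with pileups of 19, 14 and 14. Its summit lay 726 bp from the 5′ end of a protein-coding transcript. A region without a call may still hold reads, since the lists hold called peaks only.

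**Figure D3:**
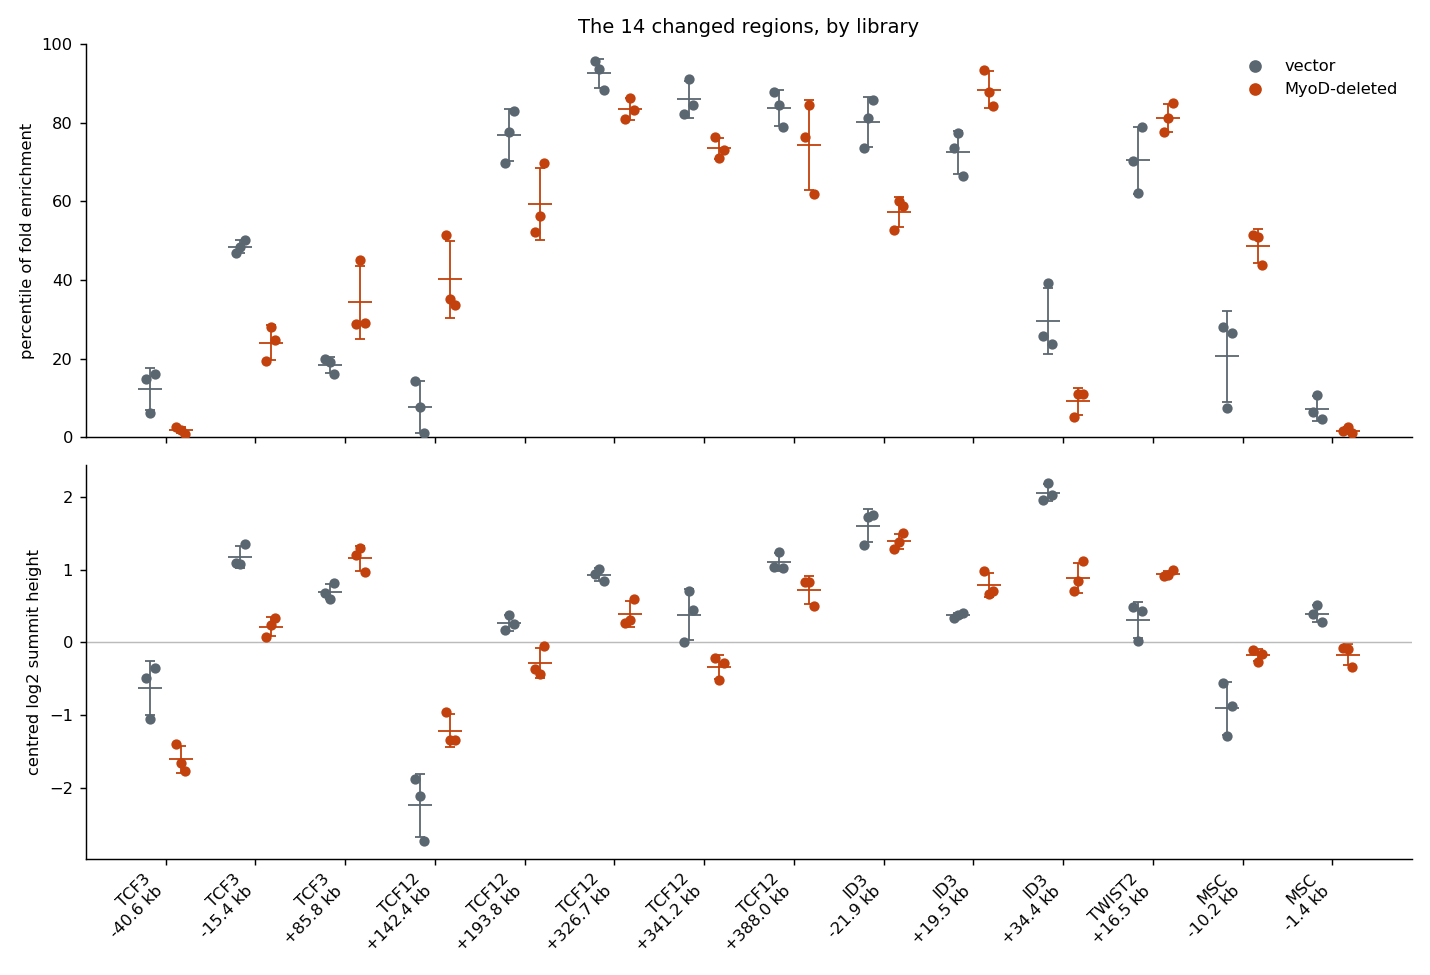
Percentile of fold enrichment (top) and centred log2 summit height (bottom) of the 14 regions that passed the test by either measure, in each of 3 vector (grey) and 3 MyoD-deleted (orange) libraries, with group mean and SD. Regions are named by gene and distance of the summit from its 5′ end, and TCF12 at 142.4 kb rose from 7.68 to 40.1 while TCF3 at 15.4 kb upstream fell from 48.5 to 24.0.

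ID3 encodes an inhibitor of E proteins that blocks muscle differentiation when overexpressed. It lies on the minus strand at chr1:23557926-23559501 (ENSG00000117318.9) and had 15 regions, 9 of them called in all libraries. The region at chr1:23581004-23581827, 21.9 kb upstream, was at percentile 73.5, 81.2 and 85.8 in vector cells and 52.8, 60.1 and 58.8 after MyoD deletion. These did not overlap, and the mean fell from 80.2 ± 6.23 to 57.2 ± 3.87 (SD, n = 3; limma adjusted p = 0.0281). The height did not pass (log2 change -0.22 ± 0.12, SE; limma adjusted p = 0.227; -0.03 without centring).

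Downstream of ID3, 2 regions moved in opposite directions, and both are nearer to the 5′ end of E2F2, a cell cycle transcription factor gene, than to that of ID3. At chr1:23539598-23540365, 19.5 kb from the 5′ end of ID3, the percentile was 73.4, 77.4 and 66.5 in vector cells and 93.3, 87.7 and 84.1 after MyoD deletion (limma adjusted p = 0.0468). The groups did not overlap, and the height rose by 0.41 ± 0.13 (SE; limma adjusted p = 0.0315). At chr1:23524742-23526110, inside E2F2 and 34.4 kb from the 5′ end of ID3, the percentile was 25.9, 39.2 and 23.7 against 5.28, 11.1 and 11.1 (limma adjusted p = 0.0408). Its height fell to 0.444 of the vector level, the largest height change among the 64 regions (log2 change -1.17 ± 0.12, SE; limma adjusted p = 3.3e-06). A weak gained region lay 26.3 kb upstream, at percentiles of 10.7, 6.996 and 2.29 among all regions of the MyoD-deleted libraries.

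ID1, ID2 and ID4, the other ID genes, had no gained, lost or changed region by percentile or centred height. ID1 (ENSG00000125968.9, chr20:31605283-31606515, plus strand) had 14 regions, and its 11 regions called in all libraries changed by less than 8 percentile points each. Its region 11.7 kb upstream passed only without centring (log2 change 0.46, limma adjusted p = 0.0239; 0.27 with centring, adjusted p = 0.222). ID2 (ENSG00000115738.10, chr2:8678845-8684461, plus strand) had 7 regions, 4 of them called in all libraries. Its region 3.13 kb downstream of the 5′ end was at percentile 21.1, 20.5 and 19.99 in vector cells and 27.1, 33.0 and 31.5 after MyoD deletion. The groups did not overlap, but the limma adjusted p was 0.283 by percentile and 0.244 by centred height. Without centring it passed (log2 change 0.38, limma adjusted p = 0.0326), as did the ID2 region 44.9 kb upstream (0.63, adjusted p = 0.00930; 0.43 with centring, adjusted p = 0.0761). ID4 (ENSG00000172201.12, chr6:19837370-19842197, plus strand) had 3 regions, and the 1 called in all libraries, 32.5 kb upstream, was among the strongest of all regions, at percentile 94.9, 94.8 and 97.5 in vector and 93.9, 97.4 and 98.7 in MyoD-deleted libraries.

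TWIST2, a bHLH repressor of muscle and bone genes, lies on the plus strand at chr2:238848032-238910534 (ENSG00000233608.5) and had 3 regions. Its intron 1 region at chr2:238863956-238864926 had centred heights of 0.48, 0.03 and 0.43 in vector cells and 0.91, 0.92 and 0.99 after MyoD deletion. The groups did not overlap (1.55-fold, log2 change 0.63 ± 0.14, SE; limma adjusted p = 0.00336). The percentile did not pass (62.0 to 79.0 against 77.6 to 84.9, adjusted p = 0.224). A gained region farther into the same intron, at chr2:238895844-238896479, was called in the MyoD-deleted libraries at percentiles of 54.3, 11.7 and 50.9, and the second of them was far below the other 2. The region 100.6 kb from the 5′ end passed only without centring (log2 change 0.78, limma adjusted p = 0.0142; 0.59 with centring, adjusted p = 0.129). TWIST1 (ENSG00000122691.13, chr7:19020991-19117636, minus strand) had 5 regions, and only the region in its exon 1 was called in all libraries.

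MSC (ENSG00000178860.9, on the minus strand) had 11 regions, 7 of them called in all libraries, and its gene was the nearest 5′ end for all 11. A region 10.2 kb upstream had centred heights of -0.56, -1.28 and -0.87 in vector cells and -0.10, -0.26 and -0.16 after MyoD deletion. The groups did not overlap (1.66-fold, log2 change 0.73 ± 0.20, SE; limma adjusted p = 0.0117), and the percentile change of 28.1 points missed the threshold (adjusted p = 0.0550). A region 1.4 kb upstream had heights of 0.39, 0.51 and 0.28 against -0.08, -0.09 and -0.33 (log2 change -0.56 ± 0.15, SE; limma adjusted p = 0.0115). Without centring that decline was -0.37 and missed the threshold (adjusted p = 0.0980). A gained region 19.4 kb upstream was called at percentiles of 14.5, 10.2 and 17.8 among all regions of the MyoD-deleted libraries.

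The strongest region within 2 kb of each gene's 5′ end passed the test by neither percentile nor centred height, although a second region within that distance of MSC, 1.4 kb upstream, was lower by centred height. Such a region, called in all libraries, was found at 7 of the 10 genes, and none was found there for ID4, TCF4 or TWIST2. The percentile was highest at TCF3, with 76.7, 73.0 and 71.9 in vector cells and 78.9, 70.6 and 73.0 after MyoD deletion. ID2 followed with 47.5, 55.5 and 56.1 against 48.8, 46.9 and 46.5, and MSC with 30.2, 32.3 and 42.6 against 41.8, 31.0 and 31.8. TCF12 was at 26.2, 29.0 and 36.2 against 22.04, 31.9 and 25.8. The summit of that region lay 51 bp from the TCF12 5′ end, but its nearest protein-coding 5′ end was that of ENSG00000285253.

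ID1 was at 21.6, 26.9 and 23.7 against 27.2, 28.3 and 29.0, with a limma adjusted p of 0.685. It was the only 5′ end where the groups did not overlap by percentile. By centred height they overlapped at ID1 but not at ID3 (1.64, 1.75 and 1.80 against 1.98, 1.81 and 2.10). The share of all regions without overlap is not given. ID3 was at 8.36, 13.3 and 8.93 against 12.99, 11.8 and 11.2, and TWIST1 was lowest with 10.4, 5.58 and 6.95 against 12.5, 6.49 and 1.93. Among the vector libraries the values of MSC overlapped those of TCF12, those of TCF12 overlapped those of ID1, and those of ID3 overlapped those of TWIST1. By centred height the order differed, with ID1 (2.78 to 2.93 in vector) above TCF3 (2.20 to 2.38) and ID2 (2.00 to 2.54). The adjusted p at the 7 regions was 0.611 to 0.991 by percentile and 0.118 to 0.755 by centred height. Without centring the ID3 5′ end passed (log2 change 0.43, limma adjusted p = 0.0132), and its centred change was 0.24 (adjusted p = 0.118).

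**Figure D4:**
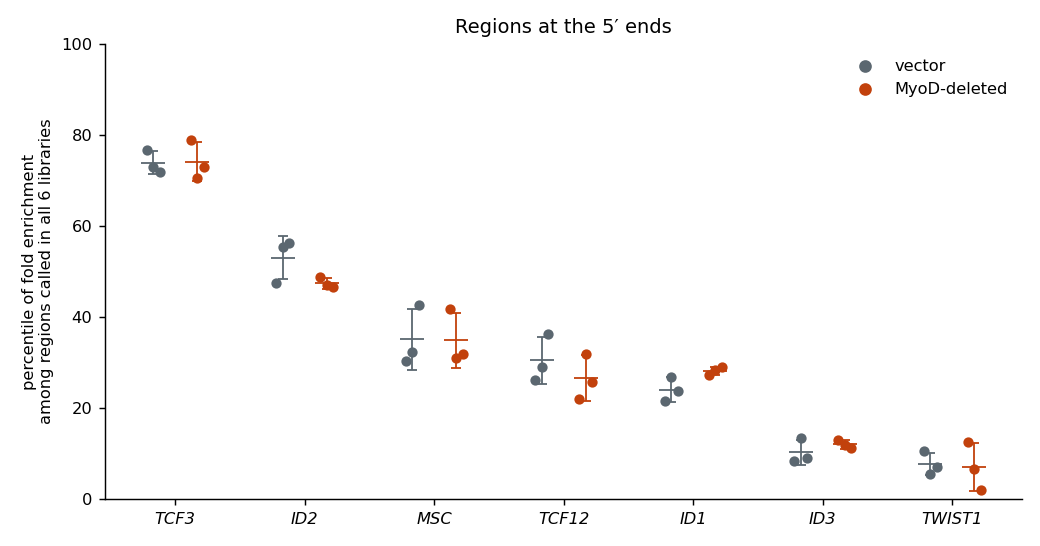
Percentile of fold enrichment among regions called in all 6 libraries for the region at the 5′ end of 7 genes, by library, with group mean and SD; ID4, TCF4 and TWIST2 had no region within 2 kb. Vector and MyoD-deleted libraries overlap at every gene except ID1, and the level falls from about 74 at TCF3 to about 7 at TWIST1.

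The median percentile over a gene's regions called in all libraries was compared by permuting the library labels exactly (20 ways, two-sided), which cannot give a p below 0.1. MSC moved most, from 28.05, 16.2 and 26.6 to 41.8, 31.0 and 31.8, a shift of 11.2 points (exact permutation p = 0.1, the smallest possible). The groups did not overlap, but only 1 of the 7 MSC regions rose in percentile, that 10.2 kb upstream (28.1 points). The median was the 5′ end region in every MyoD-deleted library and another region in each vector library. The median centred height of the same 7 regions changed by -0.17, in the opposite direction. TWIST2 shifted by 6.55 points (-0.12 without vector replicate 2) and ID3 by -6.47 points (3.82 when ranked by −log10 p). The p of the other 9 genes ranged from 0.2 to 0.9, and the smallest after Benjamini-Hochberg adjustment over the 10 genes was 0.833.

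Motifs were searched on both strands within 100 bp of the top summit. The E box that MyoD favours (CAGCTG) was found at 38 of the 126 regions (30.2%, against 25.1% of all regions). The form CACCTG (read as CAGGTG on the opposite strand) was found at 23 (18.3%, against 15.9%), any CANNTG, which includes both of these forms, at 87 (69.0%, against 71.4%) and the AP-1 motif TGANTCA at 26 (20.6%, against 22.6%). Of the 9 regions that were lower by percentile or height 6 held CAGCTG, against 56.4% of all regions called lower in the same way. Of the 5 that were higher none held CAGCTG and 1 held TGANTCA, against 16.4% and 38.7% of all regions called higher. In both cases the counts are too small to set the 10 genes apart from all regions that changed the same way. A match is a description and not a bound site.

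The genes that share partners, targets or inputs with the 10 were described with the same fits. The lists of 14 class II bHLH partners, 10 E-box repressors and 12 BMP and SMAD inputs of the ID genes had 106, 107 and 109 regions. Class II partners had 3 gained (2.83%, against 4.56% of all regions) and 2 lost regions (1.89%, against 1.78%) and 56 called in all libraries. By percentile 0 of the 56 were higher by limma's adjusted p (against 4.12% of all regions) and 2 lower (3.57%, against 4.67%). At an unadjusted limma p under 0.05, 2 were higher and 7 lower. By centred height 3 were higher (5.36%, against 11.4%) and 18 lower (32.1%, against 12.8%). The median of their centred height changes was -0.20, against 0.04 over all regions. This list includes MYOD1, the targeted gene. The MYOD1 5′ end region (log2 change -0.49, limma adjusted p = 0.00210) is among the 18 that were lower by height. The 2 lower by percentile were near LYL1 (25.7 kb from the 5′ end, percentile change -37.5, limma adjusted p = 0.0106) and SCX (40.9 kb, -29.4, adjusted p = 0.0194), and the latter was nearest to HSF1.

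E-box repressors had 4 gained (3.74%, against 4.56% of all regions) and 2 lost regions (1.87%, against 1.78%) and 60 called in all libraries. By percentile 1 was higher (1.67%, against 4.12%) and 3 were lower (5.00%, against 4.67%), and by centred height 7 were higher (11.7%, against 11.4%) and 11 lower (18.3%, against 12.8%). The region 33.0 kb upstream of HEY1, a Notch target, fell from 78.2, 64.9 and 78.3 to 20.7, 37.9 and 25.1 (limma adjusted p = 0.00669). A region near HEY2, with NCOA7 as its nearest 5′ end, changed by -17.4 points (limma adjusted p = 0.0329), and of 2 regions in or near ZEB2 1 was lower by 10.9 points and 1 was higher by 27.9 points (limma adjusted p = 0.0344 and 0.0366). BMP and SMAD inputs had 46 regions called in all libraries, 9 gained (8.26%, against 4.56% of all regions) and 1 lost (0.917%, against 1.78%). By percentile 2 were higher and 2 lower (4.35% each, against 4.12% and 4.67%), and by centred height 7 were higher and 7 lower (15.2% each, against 11.4% and 12.8%). The 2 lower were near SMAD7, an inhibitory SMAD, by 9.41 and 24.0 points (limma adjusted p = 0.0271 and 0.0285). The 2 higher were near BMPR1A, a BMP receptor, by 24.9 and 22.2 points (limma adjusted p = 0.0317 and 0.0487), and the latter was nearest to ADIRF.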

How the data were processed

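Accessible chromatin was profiled by ATAC-seq in RH30 cells (3 vector, 3 MyoD-deleted libraries; groups from the sample labels). Reads were aligned by the authors to hg38; they called peaks with MACS2 for each library without pooling and deposited 1 peak list per library. The deposited score is −log10 q times 10, the fold enrichment deposited is a ratio, summit pileup over local background, and the −log10 p and −log10 q deposited by the authors are those of the summit. None is normalized between libraries. Peaks were merged into regions where they overlapped. The pileup was recovered from the fold enrichment and −log10 p under the MACS2 Poisson model, in 100% of peaks. Regions were assigned with GENCODE 44. Mitochondrial peaks, 1 per library, were left out. Comparisons used limma 3.58.1 in R 4.3.3 (trend), and Python 3.11.15, numpy 2.4.6, scipy 1.17.1, pandas 2.3.3 and matplotlib 3.10.9. The fits were tested on simulated data. The study's DESeq2 analysis of read counts was not run, since no counts were used here. Intervals and depth are not given because read totals are unknown.

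Named regions were those gained, lost, or past an adjusted p of 0.05 by percentile or centred height, plus the region at each 5′ end. The 10 genes and the gene lists were chosen with earlier results of these data known. Replicate numbers did not pair the libraries: deviations of libraries with the same number correlated at -0.0411, -0.0975 and 0.0414.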

Additional observations from a re-analysis of the deposited data

How the results depend on the processing

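With the rank of −log10 p in place of that of fold enrichment, 6 regions were higher and 7 lower, and the median shift of TCF12 (-11.7 points) and ID3 (3.82) and the uncalled MSC 5′ end (0.22) changed sign. Taking the centred height instead gave 5 higher and 8 lower, with median shifts of -0.35 (TCF12) and -0.17 (MSC) against the percentile's direction. Without centring, 10 were higher and 4 lower by height. The medians of TCF4 (0.00781), TCF12 (-0.159) and TWIST1 (0.0459) then differed in sign from the percentile, and the uncalled 5′ ends of ID1 (0.129), ID2 (0.0613), MSC (0.126), TCF12 (0.0625) and TWIST1 (0.0459) turned positive. With peaks of −log10 q of at least 5, 1 region was higher and the ID2 median was -5.89. With equal numbers of peaks, 1 was gained, 3 lost and 0 higher by limma's adjusted p, and the ID3 5′ end changed by -0.23. The regions at TCF12 142.4 kb and TCF3 40.6 kb upstream and the TWIST1 5′ end had no value in either of these 2 peak settings. Within 10 kb of the bodies, 2 were gained, 1 higher and 0 lower, and the medians of TCF3 (0.28), ID1 (-0.91) and MSC (-0.21) changed sign. By nearest 5′ end, 11 were gained, 5 lost and 4 higher. Apart from the counts by height with and without centring, no share of all regions is given for these settings or those below. A count that moved therefore does not set these genes apart from all regions. Motif shares within 50 bp were 22.2%, 7.94%, 50% and 12.7%, in the order given for 100 bp, since the window is narrower.

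Leaving out 1 library gave 4 to 6 gained, 1 to 4 lost, 0 to 2 higher and 0 to 1 lower regions by percentile, and 3 to 6 higher and 4 to 11 lower by height. The median shift ranged from -4.45 to 4.66 (TCF3), -12.4 to 1.28 (TCF4), -0.0814 to 2.24 (ID4), -3.30 to 2.03 (TWIST1) and -0.12 to 11.7 (TWIST2) points, and the other 5 genes kept their direction. At uncalled 5′ ends the percentile change ranged across 0 at TCF3 (-1.99 to 2.08), MSC (-3.29 to 2.97) and TWIST1 (-3.30 to 2.03), and the height change at MSC (-0.16 to 0.00945) and TWIST1 (-0.338 to 0.0549). With the replicate number as a block, 1 region was higher and 1 lower by percentile, 4 higher and 8 lower by height, and the numbers do not pair the libraries. Causes of these shifts other than the narrower windows were not tested. The counting error of a single summit was not estimated, and some pileups were low, such as 22, 13 and 10 in vector libraries at TCF12 142.4 kb.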

Other observations

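The 57 partly called regions around the 10 genes were evenly split, with 26 called in more vector libraries, 26 in more MyoD-deleted libraries and 5 in equal numbers. Over all partly called regions 30.0% were called in more vector and 60.3% in more MyoD-deleted libraries. The partly called regions were weak, with a median percentile of 15.7 among all regions of the library, against 51.8 for regions called in all 6, and 25 of the 57 were called in 1 library only. Of those called in 3 libraries of one group and 1 of the other, 5 favoured the MyoD-deleted group. They lay at ID3 (18.0 kb upstream, percentiles of 21.6, 34.9 and 21.1 in MyoD-deleted libraries against 5.44 in the 1 vector library), ID4 (14.6 kb), TCF12 (415.9 kb), TCF3 (30.2 kb upstream) and TCF4 (164.2 kb). The other 2 favoured the vector group, both at TCF12, 299.4 and 419.5 kb from the 5′ end. These regions were chosen after their values were seen. The split of all partly called regions with such calls is not given, so the 5 and 2 do not set the 10 genes apart.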
